A study of Mus musculus with 10 samples.

Results

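The nuclear-encoded subunits of the respiratory chain and the ATP synthase were examined in CD8+ conventional dendritic cells (cDC1) of the mouse spleen. Members were the rows of the deposited RNA-sequencing table whose gene symbol starts with Nduf followed by a, b, c, s or v and a number, with Sdha to Sdhd, Uqcr, Cox4 to Cox8 or Atp5, without Cox6a2. By this rule 76 of 10767 genes were chosen, with 36 in complex I, 4 in complex II, 8 in complex III, 11 in complex IV and 17 in complex V. Symbols alone chose them and no measured value was used. The rule counts Ndufa4 under complex I, although the protein is now placed in complex IV, and it takes in Cox7a2l, which helps to join complexes III and IV, and Atp5s and Atp5sl, which are not structural subunits.

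The study compared Ppef2+/+ mice with Ppef2-/- mice to ask whether loss of Ppef2, a calcium-binding phosphatase, changes gene expression in these cells. The Ppef2-/- mice carried a knock-out-first allele, in which a trap cassette sits behind exon 4 and ahead of exon 5 of Ppef2. The allele came from JM8A3.N1 embryonic stem cells, and the chimeras were bred to C57BL/6. Mice were untreated, sex- and age-matched and 8 to 13 weeks old. In each of 5 sorts, CD11c+MHCII+CD8+CD11b- spleen cells were taken from 3 pooled mice of each genotype, giving 5 libraries per genotype and 10 in all. Because mice were pooled, the spread between libraries is a spread between pools and sorts, not between single animals. No label names the sort of a library, and libraries with the same replicate number are called a sort here.

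Complexes I to IV pass electrons from NADH and succinate to oxygen, and complexes I, III and IV pump protons across the inner mitochondrial membrane while they do so. The ATP synthase, complex V, lets the protons flow back and makes ATP. Most of the subunits are encoded in the nucleus and imported. In dendritic cells respiration is known to be high at rest and to give way to glycolysis after strong activation.

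Promoters of such genes are known to be read by NRF1, by ETS factors such as GABPA, and by YY1. The stretches shown here are matches to these factors in members described later, among them Ndufc1, the only member called in the fit without a block. RefSeq promoter windows of GRCm38.p6, the build that UCSC calls mm10, run from 250 bases before to 50 bases after the gene start and were at hand for 65 of the 76 members. Capitals mark the matched letters. The motif letters were GCGCATGCG for NRF1, CCGGAAG for ETS factors and AAGATGGCG for YY1, on either strand, and the NRF1 letters nearly read the same on both strands, so that overlapping matches were counted once per gene. Each line runs 5′ to 3′ on the strand of the gene.
Ndufc1, YY1 letters, chr3:51408916-51408942, minus strand: ctgcggaacAAGATGGCGccgtccgta
Ndufs6, YY1 letters, chr13:73328433-73328458, minus strand: gtcaccggcAAGATGGCGgcggtgct
Atp5sl, YY1 letters, chr7:25619431-25619457, plus strand: ttacctggcAAGATGGCGgcgcccaga
Uqcr11, NRF1 letters, chr10:80406809-80406835, minus strand: tcgccttcaCGCATGCGCtatacgtct
Atp5g2, NRF1 letters, chr15:102671072-102671098, minus strand: gctccggccGCGCATGCGcagagcctt
Cox6a1, NRF1 letters, chr5:115349103-115349129, minus strand: aggaacgggGCGCATGCGcgctctcgc
Sdhb, ETS letters, chr4:140961268-140961292, plus strand: tcggagaaaCCGGAAGcggccttcc
Sdhd, ETS letters, chr9:50603880-50603904, minus strand: gtctcctgcCTTCCGGttcacgctt

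The YY1 letters stood in 8 of 65 member windows (12.3%), compared with 4.13% of the 8673 genes of the table that have a window. The NRF1 letters also stood in 8 members (12.3%), compared with 4.45% of the table. The ETS letters stood in 16 members (24.6%) and in 22.3% of the table, so that this motif was about as frequent among members as elsewhere. In 7 of the 8 members with YY1 letters (87.5%) a match lay on the strand of the gene and after its start, compared with 53.9% of the 358 table genes that hold these letters. In these 7 members it began 22 to 35 bases after the start. These shares are descriptions of letters in a window and say nothing of whether a factor was bound.

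The libraries bore out their genotype labels. Ppef2 had 816 reads over the Ppef2+/+ libraries and 18 over the Ppef2-/- libraries, at a level of 1.19% of wild type (limma with the sort as a block, adjusted p = 0.00012). Reads in genes whose whole reads could be calculated back ranged from 1396295 to 2273524 in Ppef2+/+ and from 1508308 to 4409466 in Ppef2-/- libraries. All 12 cDC1 markers examined were in the table, with summed levels of 72497 to 74784 and 72871 to 75158 normalized counts in the respective genotypes, which overlap, while cDC2 markers summed to 889 to 1211 and 888 to 1210. Of the pDC markers all 5 were in the table, with sums of 1079 to 1205 in Ppef2+/+ and 933 to 1059 in Ppef2-/-, which do not overlap. Of these 5 markers, 1 was lower at an adjusted p under 0.05 without the block (limma), against 0.957% of all genes in either direction. At an unadjusted p under 0.05, 2 were lower, against 17.5%. With the sort as a block Ppef2 was the only gene of the table called, and no pDC marker was. The part of the pDC markers in the results that follow was not tested. These sums are of deposited values, which leave out the spread between sorts.

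The deposited values are normalized read counts from which the mean of each sort had been taken out gene by gene. In 10721 of the 10767 genes, the total of the paired Ppef2+/+ and Ppef2-/- values is identical for sorts 1 to 5. Differences in counts within a sort are intact, while their log2 ratios shift somewhat with the mean they are set on, and the spread between sorts is lost, so that an error taken from these values across sorts is too small. Whole reads were therefore calculated back where possible and multiplied by the value of 1 read. This gave levels with the sort means put back for 69 of the 76 members, and the other 7 (Atp5a1, Atp5b, Atp5c1, Atp5f1, Cox4i1, Cox7a2l and Sdha) have values too high for it. A member had 7 to 1876 reads in a library, with a median of 261. In bulk libraries such as these, fewer cells of a type and less RNA per cell cannot be told apart.

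When divided by length, nearly all subunit mRNAs lay above the typical gene of the table in cDC1, and the complexes differed in their medians. Per kb of mRNA, the median level was 227 normalized counts for complex I, 347 for complex II, 397 for complex III, 831 for complex IV and 762 for complex V, while the median over all genes with a known length was 65.0. Of the 76 members, 75 lay above that median of all genes. The members are short, with a median length of 734 bp against 2804 bp for all genes with a length. Without division by length, 57 members lay above the median of all genes (170.1 normalized counts). The levels of single members overlapped widely between complexes, and without division by length the medians stood in another order, at 209.6, 399, 371, 434 and 515 normalized counts for complexes I to V. Lengths are the exon bases of GENCODE M21 transcripts inside the RefSeq gene, and members whose annotated ends differ between transcripts have an uncertain level per kb.

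**Figure D1:**
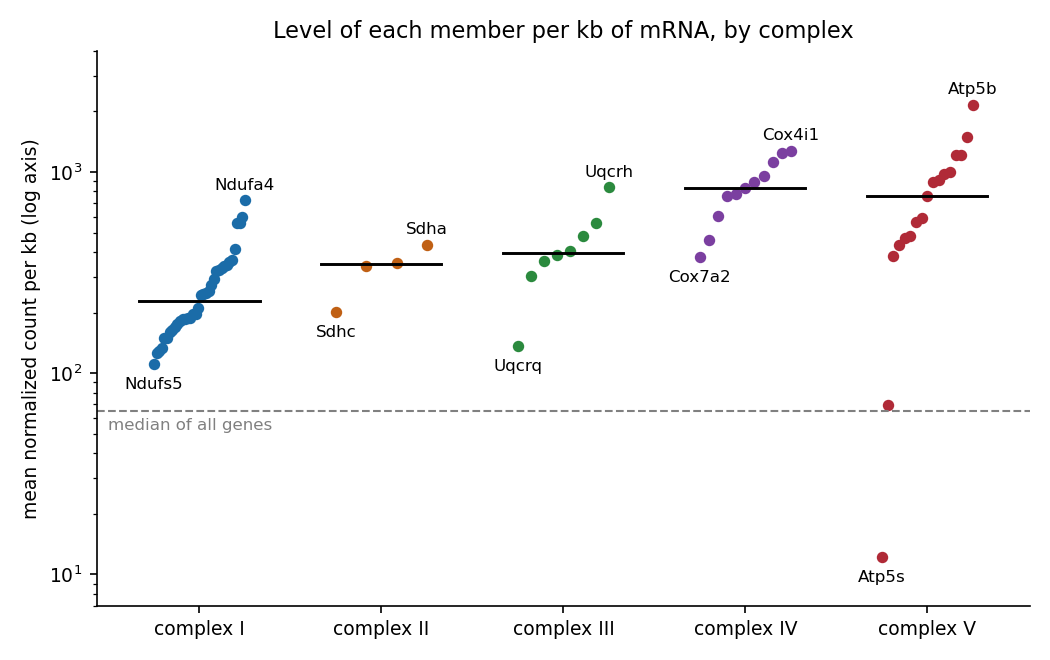
Mean level of each of the 76 members over all 10 libraries, in normalized counts per kb of mRNA on a log axis, grouped by complex. Points are members, black bars are medians of a complex and the dashed line is the median of all genes with a length (65.0). Complexes IV and V have the highest medians, and Atp5s is the only member below the dashed line.

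Within complex I the levels per kb ran from 111 for Ndufs5 to 725 for Ndufa4. The 7 core subunits that carry the flavin and the iron-sulfur clusters or line the electron path had a median of 187 per kb, and the 29 others, mostly accessory subunits, had a median of 244. Ndufa5, an accessory subunit of the arm that reaches into the matrix, had the lowest mean of complex I in normalized counts (56.1).

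The 4 subunits of succinate dehydrogenase were at 435 per kb for the flavoprotein Sdha, 353 for the iron-sulfur subunit Sdhb, 341 for the membrane anchor Sdhd and 202 for the other anchor Sdhc. Over all libraries the deposited values of Sdha lay between 413 and 457 per kb and did not meet those of Sdhb (329 to 377). The ranges of Sdhb and Sdhd (317 to 365) overlapped, and Sdhc (190 to 214) lay below both. These ranges leave out the spread between sorts.

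In complex III, Uqcrh, the hinge protein, was highest at 841 per kb and Uqcrq was lowest at 137. Uqcr11, the smallest subunit, had the lowest mean in normalized counts (133) and Uqcrc2 the highest (904). The core proteins Uqcrc1 and Uqcrc2 and the Rieske iron-sulfur protein Uqcrfs1 were close to each other, at 360, 480 and 406 per kb. Per kb the complex thus varied over 6.16-fold among its members, but only over 1.33-fold among these 3. The 6.16-fold depends on the length of 1521 bp taken for Uqcrq. In normalized counts Uqcrq (208) lay above Uqcr10 (169) and Uqcr11.

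Complex IV members lay within 3.36-fold of each other, the narrowest range of the complexes except for complex II (2.15-fold). Cox4i1 was highest at 1276 per kb and Cox7a2 lowest at 380. Several of these subunits exist as isoform pairs in which the second form belongs to muscle, lung or testis. Among the members were the widely expressed Cox4i1, Cox6a1 (1120 per kb), Cox6b1 (892 per kb), Cox7a2 and Cox8a (956 per kb). Cox6a2 was left out by the rule, and its level was not examined here. Cox4i2, Cox6b2, Cox7a1 and Cox8b, and Ndufa4l2, the hypoxic relative of Ndufa4, fit the symbol rule but had no row in the deposited table. In normalized counts Cox7a2l was highest of this complex (1366) and Cox7a2 lowest (250.1).

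The members of complex V spanned 177-fold, and 5.64-fold without Atp5s and Atp5sl, which is less than complex I (6.53-fold). Atp5b, the catalytic beta subunit, was at 2153 per kb, Atp5a1, the alpha subunit, at 1213, and Atp5c1, the central gamma subunit, at 762. By F1 head, c ring and peripheral stalk the medians were 1213, 998 and 680 per kb, and the membrane subunits e, f and g (Atp5k, Atp5j2 and Atp5l) had a median of 589. The c ring subunit is encoded by 3 genes with the same mature protein, and Atp5g2 (1209 per kb) and Atp5g3 (998 per kb) were well above Atp5g1 (382 per kb). Atp5s was lowest of all members, at 12.2 per kb and 18.1 normalized counts.

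The comparison of Ppef2-/- with Ppef2+/+ then asked whether these levels changed. Within-sort differences here and in what follows are differences of log2(value + 1) of the deposited values, and fold changes are on the log2(value + 1) scale. None of the 5 complexes moved in 1 direction over the 5 sorts. The median log2 difference, Ppef2-/- minus Ppef2+/+, was taken over the members of a complex within each sort. For complex I it was 0.06, -0.07, 0.10, 0.01 and -0.12 in sorts 1 to 5. For complex II it was 0.01, -0.09, -0.04, 0.11 and -0.13. For complex III it was -0.03, -0.11, 0.00, 0.02 and -0.03.

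Complex IV gave 0.00, -0.03, 0.09, 0.03 and -0.10 in the same order. Complex V gave 0.02, -0.02, -0.07, 0.15 and -0.11. Over the 5 sorts the medians of these values were 0.01 for complex I, -0.04 for complex II, -0.03 for complex III, 0.00 for complex IV and -0.02 for complex V, with SDs between sorts of 0.09, 0.09, 0.05, 0.07 and 0.10 (n = 5 sorts). Each median was thus smaller than the spread between sorts. Over all 10767 genes the within-sort medians lay between -0.01 and 0.01.

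**Figure D2:**
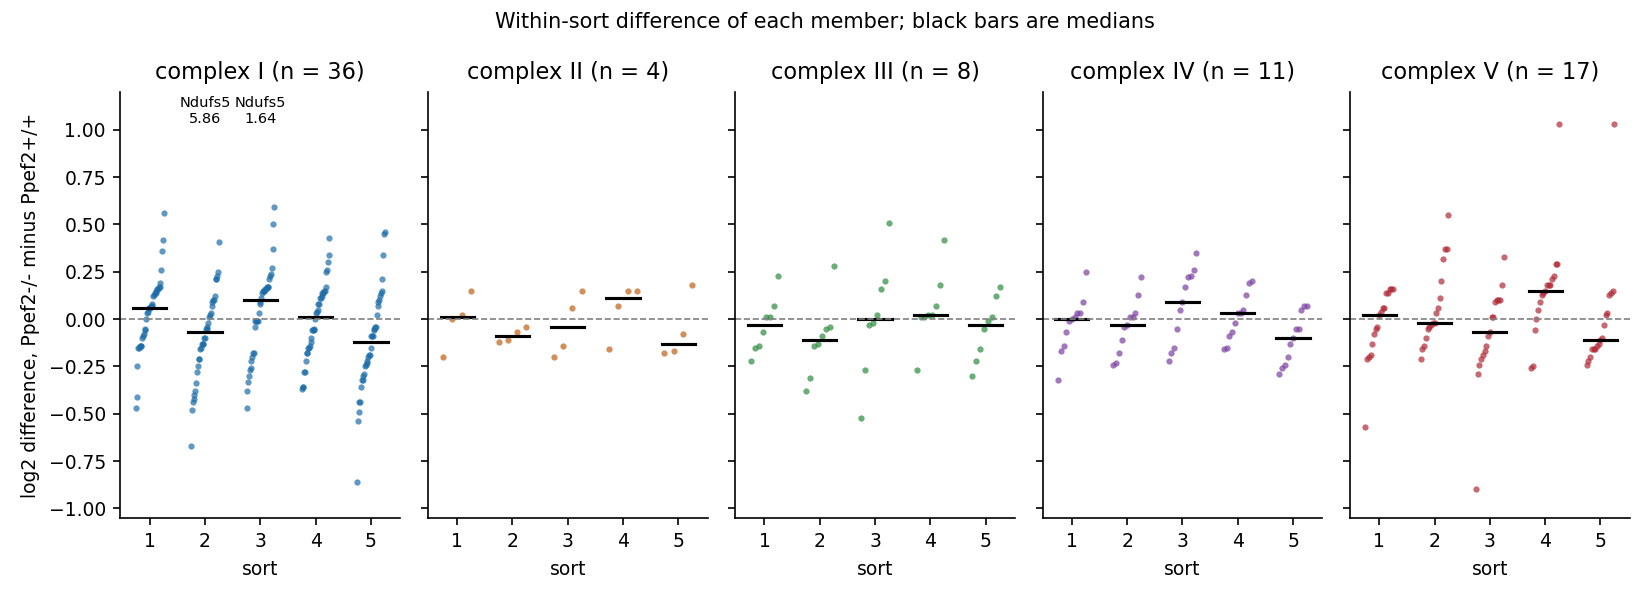
Log2 difference (Ppef2-/- minus Ppef2+/+) of each member within a sort, in a panel per complex, with sorts 1 to 5 on the horizontal axis. Points are members, black bars are medians, and Ndufs5 in sorts 2 and 3 (5.86 and 1.64, or 3.44 and 2.61 with the sort means put back) is written at the top because it lies off the axis. The bars change sign between sorts, and in sort 5 all 5 of them lie below 0.

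Parts of a complex did not always share the sign of a sort. The 4 peripheral stalk subunits of the ATP synthase, which hold the head in place, were 0 of 4 higher in sort 3, 4 of 4 in sort 4 and 0 of 4 in sort 5, with medians of -0.22, 0.17 and -0.17. The 5 genes of the F1 head had 0.09, 0.05 and -0.03 in these sorts. In complex I the 7 core subunits had 0.15, 0.08 and -0.15, and the 29 others 0.03, -0.05 and -0.09. Summed over all members, the share of the library total was 0.626, 0.636, 0.619, 0.627 and 0.643% in Ppef2+/+ and 0.629, 0.619, 0.636, 0.628 and 0.612% in Ppef2-/-, and these ranges overlap.

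Sort 5 was the sort in which most members were lower. There 24 of 76 members (31.6%) were higher in Ppef2-/-, compared with 50.2% of all genes, and every complex had a median below 0. Sort 4 had the opposite balance, with 47 members higher (61.8%) and 52.3% of all genes. In sorts 1, 2 and 3 there were 44, 28 and 42 members higher, which is 57.9, 36.8 and 55.3%. The middle 50% of the members lay between -0.22 and 0.05 in sort 5 and between -0.10 and 0.15 in sort 4, and for all genes between -0.15 and 0.16 and between -0.17 and 0.17.

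The sorts differed in depth as well. The Ppef2-/- library held 2.92, 2.31, 1.6, 0.885 and 0.730 times the reads of the Ppef2+/+ library in sorts 1 to 5, so that it was the shallower library only in sorts 4 and 5. Markers of other cells also differed within sorts. The summed level of 11 pancreas genes was 16.3, 283, 166, 168 and 11 in the Ppef2+/+ libraries and 344, 62.2, 169, 168 and 681 in the Ppef2-/- libraries, from sort 1 to sort 5. In the Ppef2+/+ library of sort 5 all 11 genes stood at the floor of 1, so that these sums are distorted by the floor. The sum of 3 erythroid genes was 111, 131, 136, 151 and 216 in Ppef2+/+ and 221, 200, 195, 180 and 116 in Ppef2-/-. Both sums are of deposited values, from which the sort means were taken out. The erythroid sums of the paired libraries therefore mirror each other, and a trend across sorts cannot be read from them. None of the 5 T cell markers was in the table. The part of depth or of these cells in the balance of members was not tested.

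Other large sets of housekeeping genes had a like balance in these sorts. In sort 5, 13 of 99 cytosolic ribosomal protein genes (13.1%), 22 of 77 mitochondrial ribosomal protein genes (28.6%) and 4 of 39 proteasome genes (10.3%) were higher in Ppef2-/-. In sort 4 these were 74 (74.7%), 47 (61.0%) and 28 genes (71.8%). The 18 glycolysis genes, by contrast, were split in sort 5, with 9 higher, and their within-sort median there was 0.01. In sort 5 the share of the members thus lay between those of the proteasome and of all genes, and the difference between the sets was not tested.

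**Figure D3:**
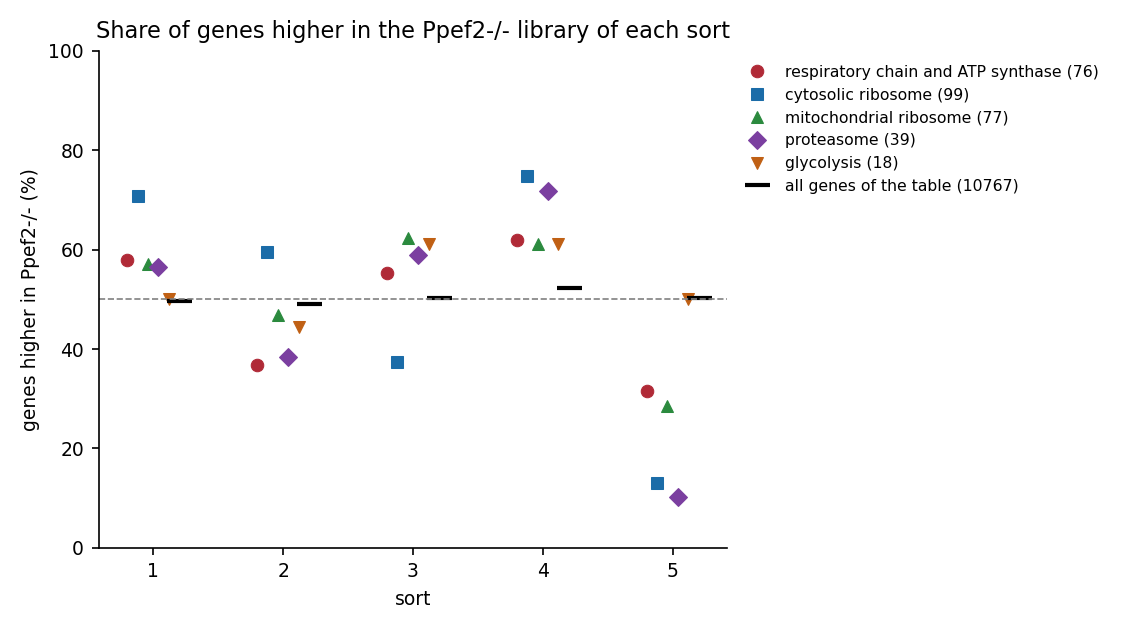
Share of genes, in percent, whose level was higher in the Ppef2-/- than in the Ppef2+/+ library of each sort, for the 76 members, 4 other gene sets and all 10767 genes of the table. Symbols are gene sets, the dashed line is 50%. In sort 5 the members (31.6%) lie below all genes (50.2%) along with cytosolic ribosome, mitochondrial ribosome and proteasome, and in sort 4 all 5 sets lie above.

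Read gene by gene, 40 members had a median within-sort difference above 0 and 36 below. This is 52.6% higher, against 49.9% of all genes. The size of the median difference was 0.07 for the typical member and 0.09 for the typical gene of the table. With limma and no block, 103 of 10767 genes (0.957%) had an adjusted p under 0.05, and among the 76 members 1 did, the fall of Ndufc1. At an unadjusted p under 0.05, 7 members passed, 1 higher and 6 lower, against 17.5% of all genes. The 6 lower were Cox5b, Cox7a2l, Ndufa13, Ndufa2, Ndufc1 and Ndufv1, and the 1 higher was Atp5e, the epsilon subunit of the ATP synthase. The number of members that passed was thus not in excess of the table.

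With the sort as a block, which takes up the pairing of the libraries, 1 gene of the table (0.00929%) had an adjusted p under 0.05, and that gene was Ppef2 itself. No member was called by this fit in limma. Unadjusted, 3 members had a p under 0.05 (Ndufc1 and Ndufv1 lower, Ndufs5 higher), against 4.29% of all genes. On levels with restored sort means, limma without a block called 1 of 9626 genes (0.0104%) and no member, and 3 members had an unadjusted p under 0.05, against 2.83% of these genes. With restored means and the block together, 2 genes of 9626 (0.0208%) and no member had an adjusted p under 0.05.

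**Figure D4:**
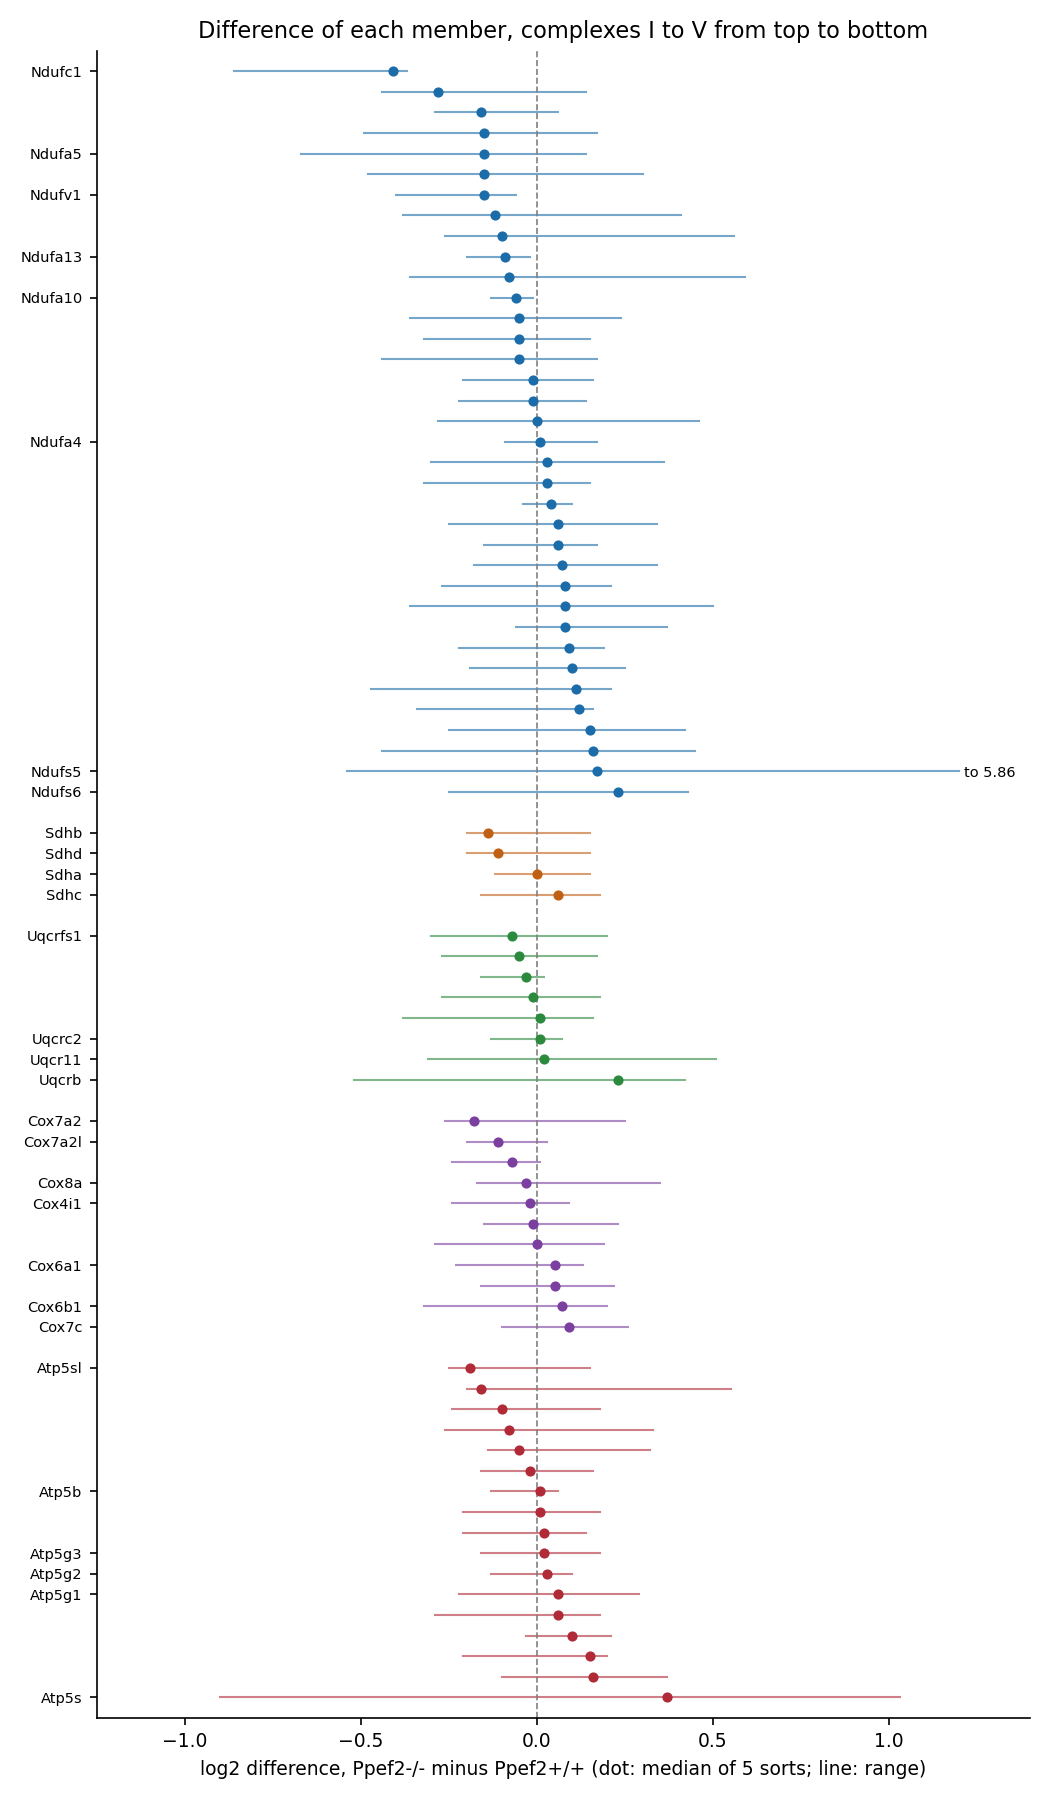
Log2 difference between Ppef2-/- and Ppef2+/+ for each of the 76 members, ordered within complexes I to V, with names given for the members described most fully. Dots are medians over the 5 sorts and lines run from the lowest to the highest sort, with the line of Ndufs5 ending off the axis at 5.86. Lines of 72 members cross 0, and those of Ndufc1, Ndufv1, Ndufa13 and Ndufa10 lie wholly below it.

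Ndufc1, a small accessory subunit in the membrane arm of complex I, had the lowest median difference of all members. Its gene lies on the minus strand of chromosome 3 from 51405479 to 51408955 in GRCm38.p6, and its promoter window holds the YY1 letters printed earlier. On the scale with restored sort means, Ppef2+/+ libraries had levels of 86.2, 91.3, 96.2, 79.5 and 108 normalized counts from sort 1 to sort 5. In the Ppef2-/- libraries it was 63.6, 70.3, 70.3, 59.2 and 61.6. The highest Ppef2-/- library lay below the lowest Ppef2+/+ library, so that the genotypes did not overlap.

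These levels rest on 63, 67, 64, 86 and 108 reads in Ppef2+/+ and on 137, 119, 75, 56 and 45 reads in Ppef2-/-. The mean was 92.2 ± 10.6 in Ppef2+/+ and 65.0 ± 5.08 in Ppef2-/- (SD, n = 5), a difference of -29.5%. An exact permutation test over the 10 libraries gave p = 0.00794 (two-sided), the smallest that 5 against 5 libraries allow, and exchange of the genotypes within sorts gave an exact p = 0.0625, again the smallest possible. Among the 69 members with whole reads Ndufc1 was the only one whose groups did not overlap. Over 9626 genes, all 5 Ppef2-/- libraries lay lower in 0.301% and higher in 0.239%.

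In the fit without a block the log2 fold change of Ndufc1 was -0.50 with an SE of 0.08 (limma, adjusted p = 0.018). This call does not hold once the sort is considered. With the sort as a block the SE was 0.14 and the adjusted p of limma was 0.995 (unadjusted p = 0.0018), and after the sort means were restored the adjusted p was 1. The within-sort difference was -0.41, -0.38, -0.47, -0.37 and -0.86, lower in 5 of 5 sorts, and the counting error of a single difference was 0.22 to 0.26.

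**Figure D5:**
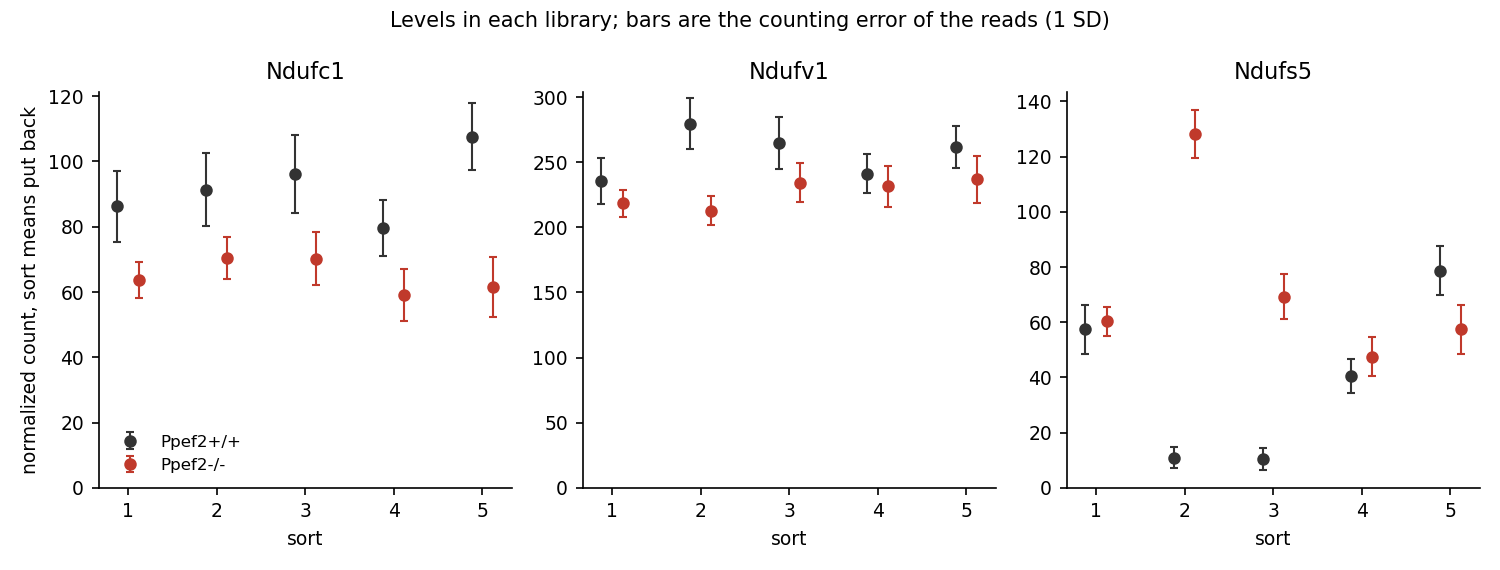
Levels of Ndufc1, Ndufv1 and Ndufs5 in each library with the sort means put back, in normalized counts, for sorts 1 to 5. Points are single libraries, black for Ppef2+/+ and red for Ppef2-/-, and bars show 1 SD of counting error. Ndufc1 is lower in Ppef2-/- in all sorts, Ndufv1 shows smaller gaps, and Ndufs5 is lowest in the Ppef2+/+ libraries of sorts 2 and 3 (10.9 and 10.5).

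Besides Ndufc1, 3 members were lower in all 5 sorts, all of them in complex I. In all, 4 of 76 members were lower in 5 of 5 sorts and 0 were higher, against 2.92% and 3.26% of all genes. Ndufv1 is the flavoprotein that takes electrons from NADH. Its level with sort means put back was 235, 280, 265, 241 and 262 in Ppef2+/+ and 218, 213, 234, 231 and 237 in Ppef2-/-, and the genotypes overlapped slightly. The means were 256 ± 18.01 and 227 ± 10.6 (SD, n = 5; exact permutation test, two-sided, p = 0.0159). With genotypes exchanged within sorts, as the pairing asks, the exact p was 0.0625, the smallest possible. In limma the log2 fold change was -0.18, with an adjusted p of 0.089 without a block and 0.995 with it.

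Ndufa13, also known as the cell death regulator Grim19, and Ndufa10, an accessory subunit, differed by less. Ndufa13 was at 324 ± 25.7 in Ppef2+/+ and 300 ± 20.7 in Ppef2-/- (SD, n = 5; exact permutation test, two-sided, p = 0.151). Ndufa10 was at 292 ± 15.96 and 278 ± 10.7 (exact permutation test, two-sided, p = 0.143, n = 5). For both, exchange within sorts gave an exact p of 0.0625, the genotypes overlapped, and the difference was smaller than 1 SD of the Ppef2+/+ libraries. Of the 69 members, 2 had an exact p under 0.05 in the permutation test over 10 libraries, Ndufc1 and Ndufv1, against 3.51% of 9626 genes, so that the number of members was not in excess of the table.

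Ndufs5, an accessory subunit of complex I on chromosome 4, from 123712710 to 123718186 on the minus strand, stood out in single libraries and was picked after its values were seen. Its deposited value is at the floor of 1 in the Ppef2+/+ library of sort 2, the only value of a member at this floor. Read numbers were 42, 8, 7, 44 and 79 in Ppef2+/+ and 130, 217, 74, 45 and 42 in Ppef2-/-. Put as levels, the Ppef2+/+ libraries of sorts 2 and 3 were at 10.9 and 10.5, and the other 8 libraries between 40.7 and 128. The genotypes overlapped, as the Ppef2+/+ library of sort 5 (78.7) was above 4 of the Ppef2-/- libraries. The means were 39.7 ± 29.7 and 72.6 ± 32.1 (SD, n = 5; exact permutation test, two-sided, p = 0.143). The unblocked log2 fold change was 1.44 (SE 0.77, limma, adjusted p = 0.36), and it was 0.52 without the Ppef2+/+ library of sort 2 and 1.26 without the Ppef2-/- library of sort 2.

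In each complex the member with the highest median difference was higher in 3 sorts and lower in 2. In complex I it was Ndufs6, an accessory subunit with a zinc site, at 95.0 ± 13.6 in Ppef2+/+ and 103 ± 7.87 in Ppef2-/- (SD, n = 5), with a median difference of 0.23 and 3 sorts higher. In complex III it was Uqcrb, the ubiquinone-binding protein, with differences of 0.23, 0.28, -0.52, 0.42 and -0.22. Its levels were 279 ± 65.7 and 287 ± 19.0. In complex V it was Atp5s, with a median difference of 0.37 that ran from -0.90 to 1.03 on 9 to 34 reads per library. For none of these 3 did the genotypes differ beyond the spread between libraries (exact permutation test, two-sided, p = 0.294, 0.825 and 0.532, n = 5 per genotype).

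In complex II the highest median difference was that of Sdhc with 0.06, and the lowest that of Sdhb with -0.14. Sdhb was at 390 ± 22.8 in Ppef2+/+ and 368 ± 19.1 in Ppef2-/- (SD, n = 5; exact permutation test, two-sided, p = 0.135). Sdhd had -0.11 and Sdha 0.00. In complex IV, Cox7c had the highest median difference (0.09) and Cox7a2 the lowest (-0.18), with levels of Cox7a2 of 256 ± 26.9 and 245 ± 11.9 (exact permutation test, two-sided, p = 0.421, n = 5). In complex III, Uqcrfs1 had the lowest median difference with -0.07. In complex V it was Atp5sl with -0.19, at 139 ± 15.1 in Ppef2+/+ and 129 ± 18.5 in Ppef2-/- (SD, n = 5). The other widely expressed complex IV forms had median differences of -0.02 for Cox4i1, 0.05 for Cox6a1, 0.07 for Cox6b1 and -0.03 for Cox8a, and Ndufa4 had 0.01.

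The members with the highest normalized counts, not divided by length, varied little. Atp5b was at 3959 to 4223 normalized counts in Ppef2+/+ and 3866 to 4130 in Ppef2-/- in the deposited values, with within-sort differences from -0.13 to 0.06. Its log2 fold change was -0.01 with an SE of 0.05 in the fit with the block (limma, adjusted p = 0.997). For Sdha, Uqcrc2 and Cox7a2l, highest in normalized counts in complexes II, III and IV, the log2 fold changes were 0.00, -0.02 and -0.08. Their SEs were 0.05 to 0.06 in that fit. The 3 genes of the c ring had 0.04 for Atp5g1, 0.02 for Atp5g2 and 0.02 for Atp5g3, with SEs of 0.09, 0.06 and 0.06. Differences of the size of 0.1 on the log2 scale could thus not be told from 0 in the fit with the block even for these genes.

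The spread between sorts was somewhat above what counting alone gives. Over the 67 members with at least 10 reads in every library, the SD of the 5 within-sort differences had a median of 0.19, and the median counting error was 0.13. The ratio of both was 1.42 at the median, and 1.36 over 8651 genes of the table. By complex it ran from 1.33 in complex II and 1.36 in complex I to 1.49, 1.61 and 1.74 in complexes III, IV and V. In 11 members the SD was below the counting error. Reads are counted without molecular identifiers, so that this error covers counting only.

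Extremes within single sorts were picked after the values were seen. In sort 1 the lowest difference was that of Atp5s (-0.57) and the highest that of Ndufv3 (0.56). In sort 2, Ndufa5 was lowest (-0.67), and after Ndufs5 the membrane subunit gene Atp5k was highest (0.55). In sort 3 these were Atp5s (-0.90) and, after Ndufs5, Ndufc2 (0.59). In sort 4 they were Ndufc1 (-0.37) and Atp5s (1.03), and in sort 5 again Ndufc1 (-0.86) and Atp5s (1.03). Atp5s, with few reads, thus led in both directions, whereas Ndufc1 appeared on the lower side alone. These are differences of single pairs of libraries and have no replicate error.

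Other genes of the pathway were read from lists of assembly factors, coenzyme Q synthesis, the citrate cycle, regulators, carriers and the mitochondrial ribosome. Of 175 genes in these lists, 0 had an adjusted p under 0.05 in limma, with or without the block. Unadjusted, 13 were higher and 11 lower without the block, and 3 were higher and 2 lower with it, so that neither direction prevailed. The share of the table at this p was 17.5% and 4.29% in the respective fits.

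Of 22 complex IV assembly factors in the table, 5 were higher and 1 lower at an unadjusted p under 0.05 without the block, against 17.5% of all genes in either direction, and 2 and 1 with it, against 4.29%. In all 5 sorts 4 were higher, against 3.26% of all genes. Of 5 complex III assembly factors, 2 were higher and 0 lower without the block, and 0 with it. Lrpprc, which stabilizes mitochondrial mRNAs, was at 249 and 278 normalized counts in Ppef2+/+ and Ppef2-/- (log2 fold change 0.16, SE 0.03, limma, adjusted p = 0.052, with the block 0.995). Coa4 was at 28.2 and 39.4 (log2 fold change 0.47, adjusted p = 0.075, with the block 0.995, limma), and Cox11, a copper chaperone for the catalytic core, at 27.7 and 37.9 (0.45, adjusted p = 0.11, with the block 0.995, limma). The within-sort median of the list was 0.19, 0.11, 0.20, 0.13 and -0.02 in sorts 1 to 5.

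Of the 13 complex I assembly factors, 2 were higher and 1 was lower at an unadjusted p under 0.05 without the block, against 17.5% of all genes. With the block 1 was higher and 0 were lower, against 4.29%. Ndufaf5 was higher in 5 of 5 sorts, as were 3.26% of all genes. It was at 34.96 and 53.19 normalized counts (log2 fold change 0.62, SE 0.18, limma, adjusted p = 0.12, with the block 0.995). Of the 10 regulators in the table, Nrf1, which encodes the factor NRF1, was lower in 5 of 5 sorts, as were 2.92% of all genes. Nrf1 was at 177 and 161 normalized counts (log2 fold change -0.14, SE 0.04, limma, adjusted p = 0.14, with the block 0.995). Tfam, which packs mitochondrial DNA, had -0.11 with an adjusted p of 0.51 in limma.

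Subunits that the symbol rule does not catch gave no call either. For cytochrome c (Cycs) the log2 fold change was 0.13 and for the ATP synthase inhibitor Atpif1 it was -0.12, with adjusted p of 0.34 and 0.37 in limma, and none of the 6 genes of this list had an unadjusted p under 0.05. Among 17 genes of pyruvate dehydrogenase and the citrate cycle, 1 was higher and 3 were lower at this p without the block, against 17.5% of all genes. With the block there were 0, against 4.29%. Citrate synthase (Cs) was at 1994 and 1904 normalized counts (log2 fold change -0.07, limma, adjusted p = 0.26). Of the 77 mitochondrial ribosomal protein genes, 2 were higher and 3 lower without the block, and 0 were higher and 1 lower with it, against the same shares. Mrpl22 came first (log2 fold change -0.41, limma, adjusted p = 0.10, with the block 0.995).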

How the data were processed

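Spleen cDC1 mRNA was measured in 5 Ppef2+/+ and 5 Ppef2-/- libraries, grouped by the genotype in their labels and paired by replicate number. Single-end reads of 50 bp were mapped to mm10 by the authors (HISAT per the methods, TopHat2 2.0.3 per the submitters' processing notes), counted per RefSeq gene, and normalized with DESeq2. The notes also list Partek 6.6. The deposited signal is a normalized count with a floor of 1, and genes whose larger genotype mean was under 10 had been removed. How reads with several mapping sites were counted, and whether strand was used, is not given in the sources used here, so that short members with near-identical copies or overlapping genes are uncertain. Of the table's columns 0 were left out.

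No step that takes out the sort means is named, but it shows in the values. For libraries of the same sort, the correlation of deviations from the genotype mean was -0.93 to -0.94 over 10721 genes in the deposited values and 0.00 to 0.29 over 9626 genes on restored levels. The sort numbers follow the replicate numbers of the libraries. No label names the sort of a library. The identical paired totals show which libraries had a shared mean taken out, so these were taken as paired. Whether the pairs are the sorts or another batch cannot be told from the values. Whole reads were calculated back for 9626 of 9627 genes with all values under 1000 (99.99%). No count model was run on them, and limma was run on reads times the value of 1 read.

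The main test was limma 3.58.1 in R 4.3.3 (eBayes with a trend) on log2(value + 1), two-sided, without a term for the sort as in the study's one-way model, with Benjamini-Hochberg adjustment over 10767 genes and a threshold of 0.05. Fold changes of low genes are understated on this scale. The fit with the sort as a block stands beside it. The fits and the read recovery were tested on simulated data. There the fit without a block called many unchanged genes once sort means were taken out, so its calls on the deposited values are not to be read without the block beside them. Within-sort medians are descriptions without a test.

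Members, lists, tests and alternatives were chosen with earlier results of these data known. Named were, per complex, the highest and lowest mean and the largest rise and fall of the median within-sort difference, members with an adjusted p under 0.05, members with 1 sign in all sorts, the isoform groups, up to 3 genes per other list with the smallest p, and Ppef2. The values of 1 member named by this rule are not reported here. The adjusted p over all genes is given and none over a list alone. RefSeq tables (GRCm38.p6) matched 76 members by symbol or synonym. Versions of Python 3.11.15 tools used were numpy 2.4.6, pandas 2.3.3 and matplotlib 3.10.9.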

Additional observations from a re-analysis of the deposited data

Results flagged for a closer look

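In the 29 members chosen by the rule and Ndufs5, 1 of 60 groups of 5 libraries had a library that lay far from the others, by Dixon's test at the 95% level, which marks about 1 in 20 groups by chance. This was the Ppef2-/- library of sort 2 for Ndufs5, at a level of 128.2 normalized counts with the sort means put back, compared with 47.6 to 69.3 in the other Ppef2-/- libraries. It rests on 217 reads. In the same sort the Ppef2+/+ library had 8 reads of Ndufs5 at a level of 10.9. What sets these libraries apart was not tested. As Ndufs5 had been picked after its values were seen, the rate of 1 in 20 does not apply to its groups. No group of the 29 members chosen by the rule was marked.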

How the results depend on the processing

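The fit with the sort as a block left 1 called gene in the table in place of 103, and 0 members in place of 1. With the sort means put back the counts were 1 and 0, and with the block in addition 2 and 0. Without a trend in eBayes 193 genes of the table and 3 of the other mitochondrial lists were called, and after scaling by the median ratio 1 gene of these lists was called. Leaving out single libraries gave 1 to 23 genes in the table and 0 to 1 members. Ndufc1 was not called without the Ppef2+/+ library of sort 2 (adjusted p = 0.0599, limma) or sort 3 (0.0575), nor without the Ppef2-/- library of sort 2 (0.0597), sort 3 (0.0556) or sort 4 (0.0503). Its log2 fold change stayed between -0.52 and -0.45 in these fits, and its adjusted p in limma ran from 0.009 to 1 over all alternatives. The block, which pairs the libraries, changed no other call of a named member. The log2 fold change of Uqcrb (0.04) turned to -0.01 without either library of sort 4, and single libraries left out gave -0.01 to 0.11. The causes were not tested, and the fits without a library also had fewer libraries.

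The 65 alternative values of the median per complex, which include 5 added after seeing the data (levels with the sort means put back), all moved by less than 1 SD between sorts. That SD was 0.05 to 0.10, so that the signs of these medians carry no weight. Read numbers of 7 to 1876 per member and library limit what can be seen, and mice were pooled.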
